A study of Capra hircus with 12 samples.

Results

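The comparison was between prepuberty and neonatal testes of wild-type (WT) black goats, Capra hircus, in libraries whose titles carry D30 and D3. It rested on 6 samples, 3 of each age, among 12 in the labels, of which 11 had tables that were analysed here. Of 24116 loci listed in every table, the 6591 that reached an FPKM of 1 in 2 or more of these 6 libraries were kept, and 17525 were left out. FPKM is the number of fragments per kilobase of a locus, divided by the total of the library. No allele, treatment or promoter separates the groups, and all of the testes came from WT animals. RNA was extracted with TRIzol from whole testis and sequenced after preparation with an lncRNA (long non-coding RNA) kit, so every value is a sum over all cells of the tissue. The labels do not say whether the 3 libraries of an age came from separate goats. The p-values therefore reflect the spread among the libraries analysed and no more, and that spread may be technical. In the main fit it was estimated over all 11 libraries, older ages included.

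The testis of a newborn ruminant holds solid seminiferous cords made of Sertoli cells, the somatic cells that nurse the germ line, around gonocytes, the fetal-type germ cells. Leydig cells, which make androgen, and peritubular cells lie between and around the cords. Before puberty, gonocytes move to the edge of the cords and become spermatogonia, while Sertoli cells go on dividing, and meiosis and sperm formation come later. LncRNAs are transcripts with little or no coding potential, and the testis is known as a tissue that expresses many of them. According to the study's design, the aim was to find RNAs that take part in the development of this organ. The step from neonatal to prepuberty is the first in the series.

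No locus can be given a gene name here, because 0 identifiers were found among the RefSeq genes of assembly ARS1.2. Of the 6591 loci kept, 5800 had identifiers of the MSTRG form, which the transcript assembler StringTie gives, and 791 were the word gene followed by a number. Whether the tissue holds the markers of its labelled type was therefore not tested, and neither was the share of germ cells, Sertoli cells or blood in any library. The loci are described by their levels, by their lengths as recovered from the values, and by their numbers.

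The 6 libraries separated by age, but not evenly. The totals to which FPKM values were scaled ran from 19128357 to 20535321 reads in neonatal and from 25512691 to 26802945 in prepuberty libraries. The share of them on listed loci differed by age. It was 22.3%, 24.8% and 25.6% in neonatal replicates 1 to 3, against 19.7%, 19.2% and 19.4% in prepuberty replicates 1 to 3. FPKM values summed to 125743, 127935 and 129361 in the neonatal libraries and to 72751.1, 76056.5 and 78774.1 in the prepuberty ones. What lies behind this difference was not tested. For a locus of 2586 bases, the median of the tested loci, an FPKM of 1 stood for 49.5 to 69.3 reads. Pearson correlations of log2(FPKM + 1) across the tested loci, which are not independent replicates, were 0.846 to 0.876 within the neonatal age, 0.903 to 0.936 within prepuberty and 0.736 to 0.841 between the ages. Prepuberty replicate 2 stood nearest to the neonatal libraries, at 0.798 to 0.841, against 0.758 to 0.794 for replicate 1 and 0.736 to 0.772 for replicate 3. On loci called as rises without it, a library was placed between the neonatal mean (0%) and the prepuberty mean (100%) of the other libraries. Prepuberty replicate 2 lay at a median of 61.4% (146 loci), replicate 1 at 102% (111 loci) and replicate 3 at 114% (98 loci). On loci called as falls, neonatal replicate 1 lay at 37.7% of the way to prepuberty (259 loci), replicate 2 at 22.8% (191 loci) and replicate 3 at 14.0% (169 loci). So each age had 1 library shifted toward the other age, prepuberty replicate 2 on both sets and neonatal replicate 1 mainly on the falls. Results that turn on these libraries are given with and without them.

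**Figure D1:**
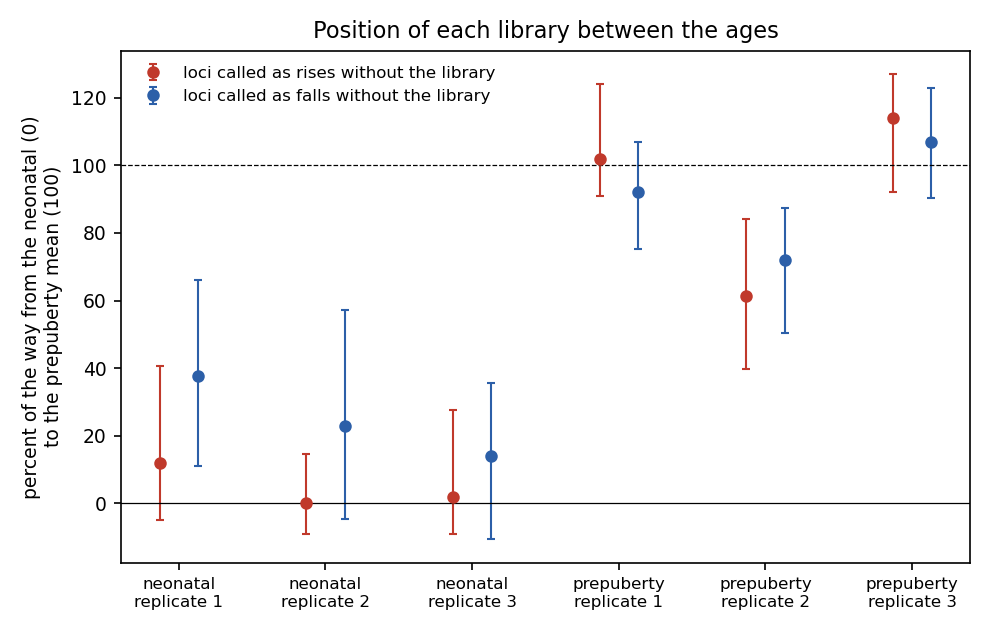
Each point is the median position of 1 library, in percent of the way from the neonatal mean (0) to the prepuberty mean (100) of the other libraries, over loci called without that library; red marks rises, blue marks falls, and bars run from the lower to the upper quartile of loci. Prepuberty replicate 2 sits at 61.4% on rises and 72.1% on falls, below the other prepuberty libraries, and neonatal replicate 1 sits at 37.7% on falls.

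Between the neonatal and the prepuberty testis, 111 loci rose (1.68% of the 6591 tested) and 172 fell (2.61%), so that 283 (4.29%) were called. A called locus had a limma adjusted p under 0.05 and a change of at least 1 in log2(FPKM + 1), a scale that understates the change of low loci. The rises were fewer but larger. Their median change was 1.34 (range 1.01 to 4.75), and 19 of them passed 2 on the log2 scale. The falls had a median change of -1.14 and reached -2.42, and 2 of them passed 2 in size. Over all tested loci the median change was -0.18. In testis as a whole, fewer cells of a type and less RNA per cell cannot be told apart for any of these loci.

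The 3 prepuberty libraries lay above the 3 neonatal ones at 627 loci (9.51% of those tested) and below them at 1795 (27.2%). Among the called loci this held for 110 of 111 rises and 164 of 172 falls. The rise whose groups overlapped was MSTRG.246199. With no threshold on the size of the change, 411 loci were higher (6.24%) and 1313 lower (19.9%) in prepuberty at an adjusted p under 0.05. Small decreases were thus much more frequent than small increases under the authors' scaling. A change of 1 or more that missed the test was found at 13 loci that were higher and 7 that were lower. Fitted to the 6 libraries alone, limma called 104 rises (1.58%) and 150 falls (2.28%), and all of these were among the calls of the fit to 11 libraries. The counts with no threshold on size were less stable. In the fit to 6 libraries they were 216 higher and 512 lower of the same 6591 loci, against 411 and 1313.

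The number of rises and of falls, and the balance between them, turned with the scaling. Of the calls, 39.2% were rises with the FPKM as deposited, 69.5% after median of ratios scaling, 64.3% after quantile normalization and 91.9% after rescaling to TPM (values made to sum to the same total over the listed loci in every library). The median change of all loci moved from -0.18 to -0.04, -0.02 and 0.43 in the same order. These scalings gave 132, 146 and 942 rises and 58, 81 and 83 falls. All 3 raise the median change, so it follows from their direction that rises were kept (109 of 111 under all 3) and falls near the threshold were lost (32 of 172 kept). These counts do not show that the rises are the firmer calls. No called locus changed its sign under any of the 3. With the median change of -0.18 taken out of every locus, an alternative added after the data were seen, 172 loci rose and 64 fell. TPM values of every locus depend on the most abundant one, MSTRG.335283. It held 71710 of an FPKM sum of 125743 in neonatal replicate 1 and 26083 of 72751.1 in prepuberty replicate 1. A lower share of that locus raises the TPM of all others. How many of the 942 rises as TPM follow from it was not tested. Whether total RNA per cell differed between the ages was not tested.

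**Figure D2:**
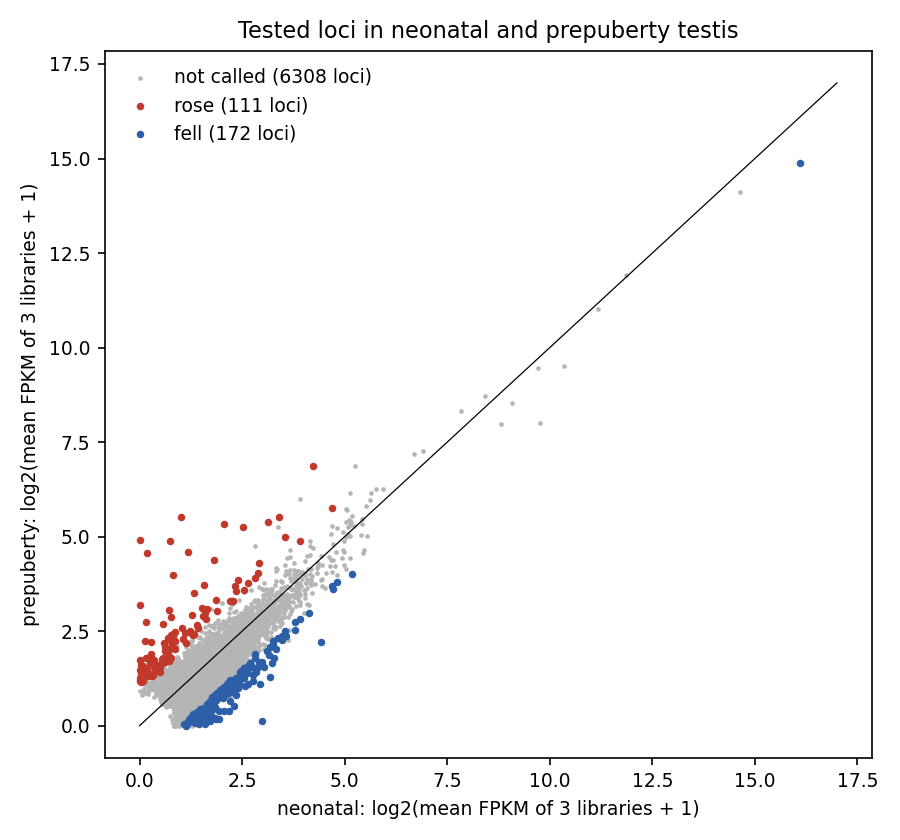
Each point is 1 of the 6591 tested loci, with log2(mean FPKM + 1) of the 3 neonatal libraries on the horizontal axis and of the 3 prepuberty libraries on the vertical axis; red points rose (111), blue points fell (172), and the line marks equal levels. Several red points stand far above the line at neonatal levels near 0, whereas most blue points run in a band close below it.

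Fewer loci reached an FPKM of 1 at prepuberty with the FPKM as deposited. Neonatal replicates 1 to 3 had 5523, 6325 and 6034 such loci, and prepuberty replicates 1 to 3 had 4958, 5124 and 4550. The ages did not overlap, and the means were 5961 ± 406 (SD, n = 3) and 4877 ± 295 (n = 3), a difference of -1083. An exact two-sided permutation test gave p = 0.1, the smallest that 3 against 3 allows. At a minimum of 0.5 the means were 8678 and 7770 loci, and at a minimum of 5 they were 721 ± 54.3 and 600.0 ± 37.0. The lower count at prepuberty went with deeper libraries and with lower FPKM sums, as the values above show. Whether the count is also lower under another scaling was not tested.

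Called loci were shorter at the median than the tested loci, by the recovered lengths. The median was 1346 bases for rises (range 150 to 100251) and 1818.5 for falls (range 125 to 79869), against 2586 for all tested loci.

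The most abundant locus of all was a fall. MSTRG.335283, with an implied length of 355 bases, had 71710, 69531 and 68083 FPKM in neonatal replicates 1 to 3 and 26083, 33952 and 29737 in prepuberty replicates 1 to 3. All prepuberty libraries were below all neonatal ones, and the mean was 2.33-fold lower (log2 change -1.23 ± 0.23 SE, limma adjusted p = 0.00423). The call held after median of ratios scaling (-1.004, adjusted p = 0.0305) and with the median change taken out (-1.05, adjusted p = 0.0105). With a pseudocount of 0.1 the change was the same, at an adjusted p of 0.0923. TPM gave -0.48 (adjusted p = 0.491), but it divides this locus largely by itself, since the locus held 71710 of an FPKM sum of 125743 in neonatal replicate 1. Quantile normalization gives the top locus of every library the same value, so that it cannot show a change there.

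The next 3 loci in abundance were not called. MSTRG.178147 (1509 bases) had 24040, 25556 and 27236 FPKM in neonatal libraries and 17917, 14010 and 20960 in prepuberty libraries (-0.56 ± 0.29, adjusted p = 0.169). These groups did not overlap, yet the difference missed the test. MSTRG.385323 (7781 bases) had 2690, 3964 and 4409 FPKM against 4025, 3521 and 4079 (0.10 ± 0.21, adjusted p = 0.755). For MSTRG.180257 (3429 bases) the values were 2100, 2344 and 2496 against 1946, 1711 and 2532 (-0.18 ± 0.20, adjusted p = 0.528). Both loci had overlapping groups.

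Among the rises, the largest change by the fitted value was from nothing detected. MSTRG.410845 (527 bases) had no read in any neonatal library and 35.7, 12.5 and 38.7 FPKM in prepuberty replicates 1 to 3, which is 1217 reads. With 3 reads taken as the most that the neonatal libraries together could have missed, the level was at least 302-fold higher (fitted log2 change 4.75 ± 0.35, adjusted p = 4.23e-05). Its neighbour in number, MSTRG.410846 (304 bases), was also without a read in the neonatal libraries and had 4.17, 0.903 and 1.97 FPKM at prepuberty, from 57 reads, at least 14.1-fold higher. That call, at an adjusted p of 0.02, was lost without prepuberty replicate 1 (change 1.25, adjusted p = 0.0746), without prepuberty replicate 3 (1.65, adjusted p = 0.0611) and with no filter on low loci (adjusted p = 0.0637).

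MSTRG.413732 (548 bases) was the third named rise with 0 neonatal reads. It had 12.0, 2.93 and 9.56 FPKM at prepuberty, from 357 reads, at least 88.4-fold higher (3.02 ± 0.45, adjusted p = 0.00132). The next locus in number, MSTRG.413733 (3207 bases), was already present in neonatal testes, with 15.9, 3.40 and 3.83 FPKM against 50.5, 19.4 and 53.0 (2.44 ± 0.55, adjusted p = 0.00942). In all 4 of these loci prepuberty replicate 2 was the lowest of the 3 prepuberty libraries. In all, 9 tested loci had no read in the neonatal libraries, of which 6 were called, and 6 had none in the prepuberty libraries, of which 1 was called.

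Several loci went to high levels from about 1 FPKM or less in neonatal testes. MSTRG.406978 (9875 bases) went from 1.21, 0.949 and 0.916 FPKM to 66.6, 14.0 and 53.8, a mean 43.7-fold higher (4.24 ± 0.43, adjusted p = 0.000281). MSTRG.408422 (993 bases) went from 0.245, 0.0513 and 0.105 FPKM, 8 reads in all, to 27.4, 7.11 and 33.5, a mean 169-fold higher (4.14 ± 0.43, adjusted p = 0.000281). The lowest prepuberty library, replicate 2 in both, was still above the highest neonatal library. MSTRG.280121 (626 bases) had 0.311, 1.22 and 0.752 FPKM against 21.9, 5.70 and 17.3 (3.03 ± 0.36, adjusted p = 0.000499). These 3 calls held under every alternative that was run.

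Relative to its mean, MSTRG.413876 (417 bases) varied most of the named rises among the prepuberty libraries. It had 11.7, 3.10 and 70.1 FPKM there, over 1.17, 0.244 and 0.627 in neonatal libraries. Its groups did not overlap, and the change was 3.24 ± 0.75 (adjusted p = 0.0106). Fitted with voom, which models read counts, on the reads recovered from the values, the adjusted p was 0.0906 with 11 libraries and 0.192 with 6.

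The rise with the highest level at prepuberty was MSTRG.407276 (4085 bases). It had 20.6, 18.6 and 14.4 FPKM in neonatal libraries (17.9 ± 3.18, SD, n = 3) and 182, 43.7 and 119 in prepuberty libraries (115 ± 69.4, n = 3). The lowest prepuberty library was above the highest neonatal one, and the change was 2.41 ± 0.46 (adjusted p = 0.00434). MSTRG.412966 (4079 bases) had 2.82, 1.89 and 4.82 FPKM against 70.6, 15.9 and 32.5 (3.10 ± 0.69, adjusted p = 0.00907). Both stayed called under every alternative.

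A second kind of abundant rise was even across the prepuberty libraries. MSTRG.110062 (296 bases) had 43.9, 45.2 and 46.3 FPKM at prepuberty over 11.7, 1.38 and 15.4 in neonatal libraries, where replicate 2 was far below the others. Its change of 2.54 ± 0.55 (adjusted p = 0.00777) missed the threshold with a pseudocount of 0.1 (adjusted p = 0.0592) and in a fit of only 5 libraries, added after the data were seen, that left out prepuberty replicate 2 (adjusted p = 0.0613). MSTRG.414056 (512 bases) had 49.2, 61.6 and 49.0 FPKM over 19.1, 24.8 and 30.4 (1.09 ± 0.25, adjusted p = 0.0113). For gene8110 (2266 bases) the levels were 26.7, 28.2 and 30.2 FPKM over 15.7, 9.28 and 17.1 (1.01 ± 0.20, adjusted p = 0.00506).

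Changes this close to the threshold of 1 fell below it when single libraries were left out. MSTRG.414056 had 0.92 without neonatal replicate 1 and 0.98 without prepuberty replicate 2. Without neonatal replicate 2, gene8110 had 0.75, and without prepuberty replicate 3 it had 0.96. Their adjusted p stayed under 0.05 in each of these fits.

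**Figure D3:**
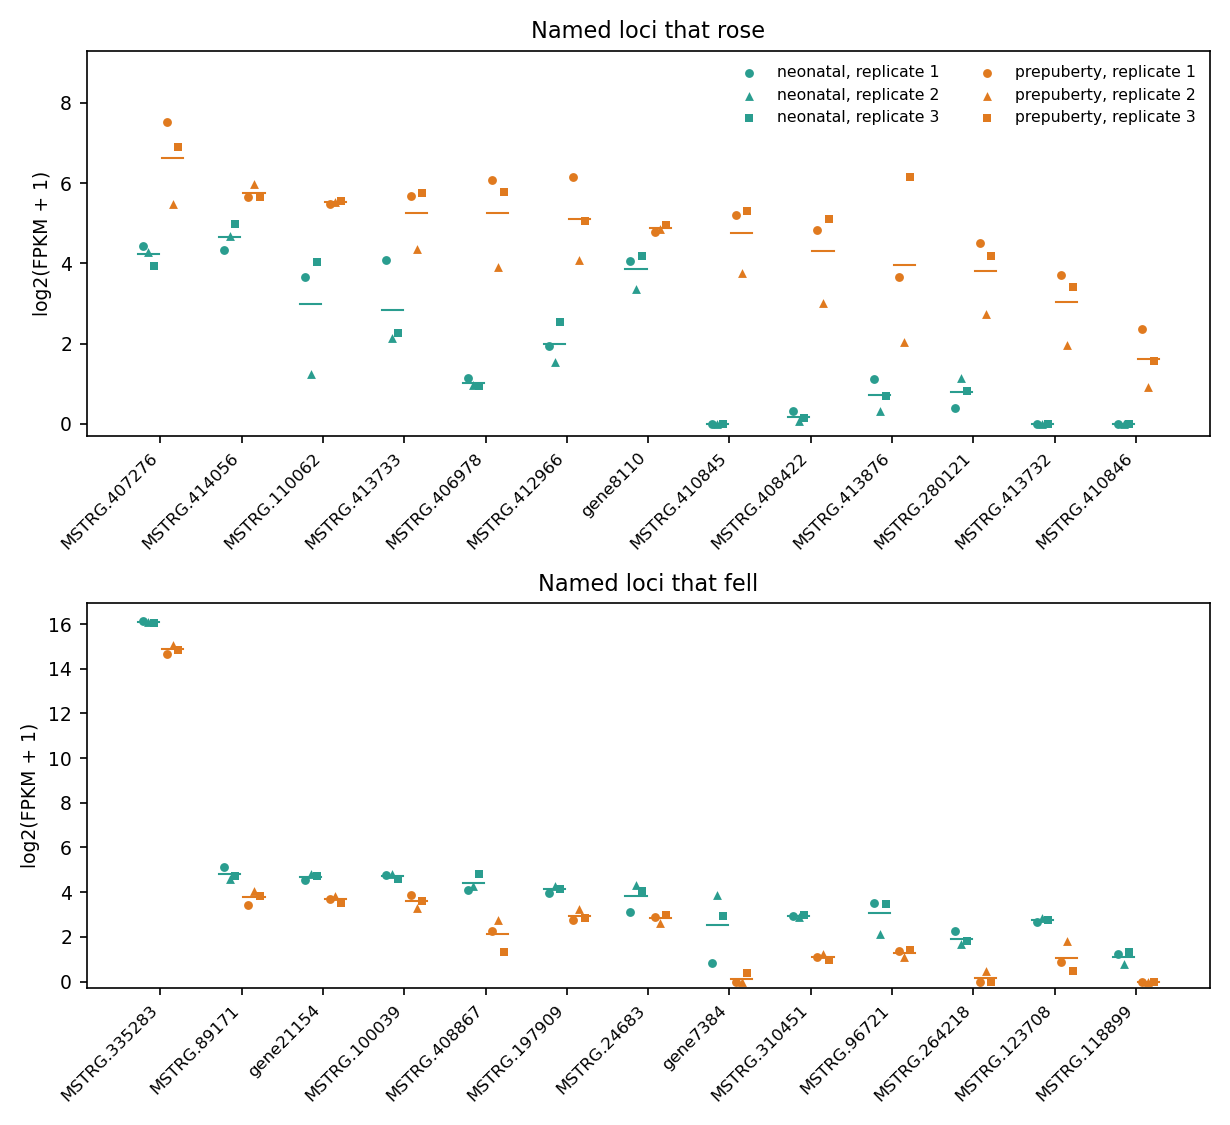
Each column is 1 named locus, with log2(FPKM + 1) of the 3 neonatal (green) and 3 prepuberty (orange) libraries, a symbol per replicate number and a line at the mean; the upper panel shows 13 loci that rose and the lower panel 13 that fell. In the upper panel prepuberty replicate 2 (triangle) is the lowest prepuberty library in 10 of the 13 loci, and no locus has overlapping groups.

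The falls that held under every alternative were few among the named ones. MSTRG.310451 (4278 bases) was the steadiest, with 6.61, 6.37 and 6.81 FPKM in neonatal and 1.12, 1.34 and 0.953 in prepuberty libraries, a mean 5.81-fold lower (-1.83 ± 0.12, adjusted p = 3.83e-05). MSTRG.408867 (987 bases) had 16.1, 18.5 and 26.9 FPKM against 3.74, 5.68 and 1.52, a mean 5.62-fold lower (-2.29 ± 0.30, adjusted p = 0.000828). MSTRG.96721, at 32818 bases the longest of the named loci, had 10.6, 3.42 and 10.01 FPKM against 1.54, 1.12 and 1.62 (-1.77 ± 0.29, adjusted p = 0.00209). In each of the 3 the lowest neonatal library was above the highest prepuberty one.

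Short loci with few reads made up the rest of the larger falls. The fall of greatest fitted size was gene7384 (125 bases), at 0.779, 13.4 and 6.69 FPKM in neonatal and 0, 0 and 0.299 in prepuberty libraries. This was 51 reads against 1, a ratio per total of 68.0 with an exact 95% counting interval of 11.7 to 2737. Its change of -2.42 ± 0.57 (adjusted p = 0.0119) missed the test with voom on 6 libraries (adjusted p = 0.111) and in the fit of 5 libraries without prepuberty replicate 2 (adjusted p = 0.081). MSTRG.264218 (208 bases) had 3.75, 2.20 and 2.51 FPKM against 0, 0.377 and 0, from 35 and 2 reads, a ratio of 23.3 (interval 5.99 to 200.2). Its call (-1.76 ± 0.22, adjusted p = 0.000565) held under all alternatives.

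MSTRG.118899 (213 bases) was the called locus with no read at prepuberty, over 1.37, 0.717 and 1.47 FPKM from 15 reads in neonatal libraries, at least 6.66-fold lower (adjusted p = 0.0058). Its change of -1.11 was -0.94 after median of ratios scaling. MSTRG.123708 (368 bases) had 5.29, 6.23 and 5.82 FPKM against 0.811, 2.56 and 0.407 (-1.70 ± 0.28, adjusted p = 0.00223), and missed the test as TPM (adjusted p = 0.0579). Counting intervals and floors cover counting error only, since reads without molecular identifiers are not independent molecules.

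Other abundant falls had changes just past the threshold. In gene21154 (6148 bases) the levels were 22.6, 27.5 and 25.1 FPKM against 12.1, 13.3 and 10.3 (-1.02 ± 0.14, adjusted p = 0.000881). MSTRG.89171 (280 bases) had 33.7, 23.1 and 25.2 against 9.73, 15.7 and 13.4 (-1.03 ± 0.19, adjusted p = 0.00382). MSTRG.100039 (227 bases) had 26.0, 26.9 and 23.0 against 13.8, 8.81 and 11.2 (-1.12 ± 0.24, adjusted p = 0.00737). None of the 3 had overlapping groups, and in each the size of the change fell below 1 after median of ratios scaling, at -0.80, -0.81 and -0.90 in the order given, and as TPM. Single libraries had the same effect. The change was -0.95 for gene21154 without neonatal replicate 2 and -0.93 without prepuberty replicate 3. For MSTRG.89171 it was -0.88 without neonatal replicate 1 and -0.86 without prepuberty replicate 1, and for MSTRG.100039 it was -0.97 without prepuberty replicate 2.

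MSTRG.197909 (536 bases) had 14.8, 18.6 and 16.5 FPKM against 5.71, 8.56 and 6.21 (-1.18 ± 0.16, adjusted p = 0.000921), and -0.97 after median of ratios scaling. MSTRG.24683 (1076 bases) was the least secure of the named falls, at 7.60, 18.8 and 15.8 FPKM against 6.41, 5.10 and 6.82 (-1.01 ± 0.27, adjusted p = 0.0208). Neonatal replicate 1 was close to the prepuberty libraries there. The call was lost under 11 of 18 alternatives. They include the fit of 6 libraries (adjusted p = 0.0518), median of ratios scaling (-0.79, adjusted p = 0.0544) and TPM (-0.36, adjusted p = 0.655). Single libraries mattered too. The change was -0.77 without neonatal replicate 2 (adjusted p = 0.0718), -0.88 without neonatal replicate 3 (adjusted p = 0.0675) and -0.90 without prepuberty replicate 2 (adjusted p = 0.0555).

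The rises were uneven across the prepuberty age as a set. Prepuberty replicate 2 was the lowest prepuberty library at 76 of 111 rises (68.5%), against 25.0% of all tested loci, and replicate 3 was the highest at 63 (56.8%), against 20.4%. At the falls the picture was milder, with replicate 2 the highest prepuberty library at 98 of 172 (57.0%) against 48.2% of all tested loci. Without prepuberty replicate 2, 146 loci rose and 245 fell, and without replicate 3, 98 rose and 120 fell. Without neonatal replicate 1 the falls numbered 259. What sets these libraries apart was not tested.

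By identifier type, 22 of 791 loci named gene with a number rose (2.78%) and 15 fell (1.9%). Of 5800 MSTRG loci, 89 rose (1.53%) and 157 fell (2.71%). The counts of the first type are small, the types were not tested against each other, and the balance of rises and falls depends on the scaling. The types differed in length, with medians of 983 and 2984.5 bases, and in the share of listed loci that passed the filter, 43.2% of 1830 and 26.0% of 22286.

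Many of the strongest rises had MSTRG numbers above 400000, in a range that ends at 415183. That boundary was chosen after the values were seen. There, 19 of 246 tested loci rose (7.72%) and 5 fell (2.03%), whereas at or below 400000, 70 of 5554 rose (1.26%) and 152 fell (2.74%). Over the other 20 bins of 20000 numbers each, 0.323% to 2.48% of the tested loci rose. The 19 rises had a median change of 2.41, against 1.25 for the other 92, and 10 of them passed 2 on the log2 scale, against 9 of the 92. Among others they include MSTRG.407276, MSTRG.406978, MSTRG.412966, MSTRG.410845, MSTRG.408422 and MSTRG.413876, described above.

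Their median FPKM was 0.384, 0.244 and 0.294 in neonatal replicates 1 to 3 and 12.6, 3.10 and 32.5 in prepuberty replicates 1 to 3. The prepuberty libraries thus spanned a wide range on these loci, with replicate 2 the lowest at 17 of 19, against 59 of the other 92 rises (64.1%). Without replicate 2, 18 of the 19 were still called, as were 84 of the 92. Where in the genome these numbers lie is not stated in the tables.

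**Figure D4:**
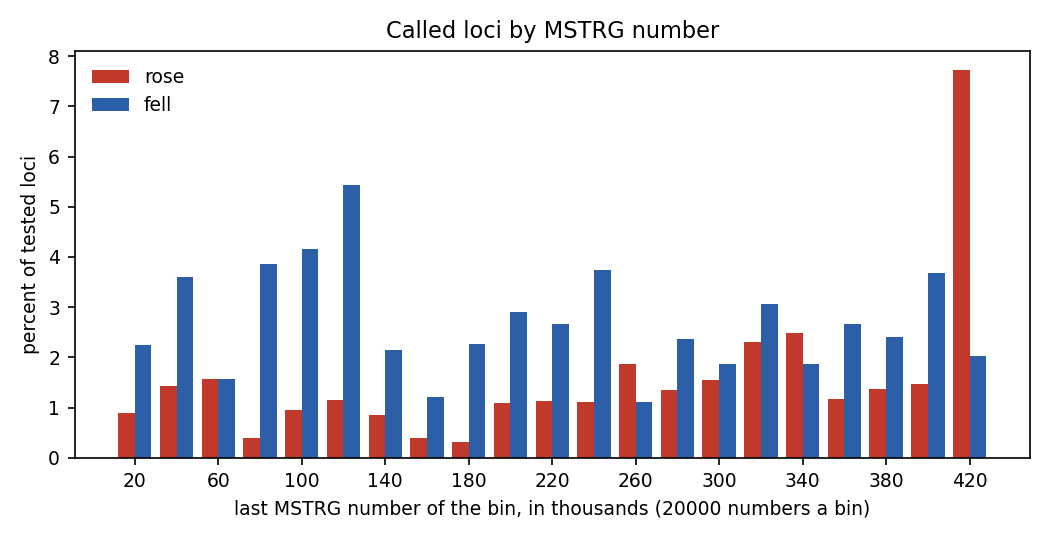
Bars give the percent of tested MSTRG loci that rose (red) and fell (blue) in each bin of 20000 numbers, and the horizontal axis runs along the numbers. The last bin, with 246 tested loci, stands out for rises at 7.72%, whereas the falls vary from 1.12% to 5.43% with no such peak.

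Called loci tended to have called neighbours in number. Among rises with a tested locus within 10 numbers, 16 of 46 (34.8%) had another rise there, against 56 of 3304 (1.69%) of all tested loci with such a neighbour. Among falls it was 44 of 96 (45.8%) against 151 of 3304 (4.57%). The rises formed 8 runs of 2 loci and the falls 19 runs of up to 4. Whether neighbours share reads or belong to 1 transcript was not tested.

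Runs differed in the libraries they followed, as a few chosen after their values were seen show. The longest held MSTRG.66269, MSTRG.66270, MSTRG.66272 and MSTRG.66278. MSTRG.66272 (6818 bases) had 1.20, 4.08 and 2.48 FPKM in neonatal and 0.120, 0.299 and 0.00549 in prepuberty libraries (-1.58, adjusted p = 0.00256). In each of the 4 loci neonatal replicate 1 was the lowest neonatal library and prepuberty replicate 2 the highest prepuberty one. The weakest of them, MSTRG.66270 (-1.01, adjusted p = 0.0217), lost its call under 11 alternatives. They include the fit of 6 libraries (adjusted p = 0.0881) and the fits without neonatal replicate 2 (-0.70), neonatal replicate 3 (-0.98), prepuberty replicate 1 (-0.99) and prepuberty replicate 3 (-0.99). MSTRG.66269 went from -1.12 to -0.94 after median of ratios scaling, -0.95 after quantile normalization and -0.94 with the median change taken out.

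In the run of MSTRG.160139 and MSTRG.160142 the first locus (7699 bases) had 1.58, 0.668 and 1.15 FPKM against 0.00969, 0.0713 and 0.0243 (-1.02, adjusted p = 0.00334), and 0 in the 5 libraries of older testes. The change of MSTRG.160139 was -0.87 both without neonatal replicate 1 and after median of ratios scaling. It was -0.84 after quantile normalization and with the median change taken out. In the fit of 5 libraries without prepuberty replicate 2 the adjusted p was 0.0635. The pair MSTRG.357603 and MSTRG.357609 was higher and more even. MSTRG.357609 (1973 bases) had 13.1, 12.6 and 12.7 FPKM against 7.37, 5.26 and 4.57 (-1.06 ± 0.15, adjusted p = 0.00108). The change of MSTRG.357603 was -1.07, so both were just past the threshold. With the median change of -0.18 taken out, both are smaller than 1 in size. Among the rises, MSTRG.252928 (1066 bases), in a run with MSTRG.252922, had 0.731, 0.956 and 1.47 FPKM against 5.07, 6.32 and 3.65 (1.54 ± 0.21, adjusted p = 0.000993), with prepuberty replicate 2 the highest.

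The older testes of the same series, puberty (titles D90, 2 libraries) and postpuberty (D180, 3 libraries), show where the called loci stood later. The values at prepuberty and neonatal age are the ones that chose the loci, and the filter on the 6 younger libraries favours loci that are high there, so the older levels are set beside those of all tested loci. The median FPKM of the rises was 0.565, 0.622 and 0.577 in neonatal replicates 1 to 3 and 4.13, 2.93 and 4.57 in prepuberty replicates 1 to 3. It was 1.38 and 0.779 in puberty replicates 2 and 3 and 1.18, 0.986 and 1.25 in postpuberty replicates 1 to 3. The falls had medians of 2.86, 3.12 and 3.68 in neonatal and 0.796, 0.965 and 0.604 in prepuberty libraries. In puberty they were at 0.285 and 0.138, and in postpuberty at 0.243, 0.278 and 0.237. For all tested loci the medians of the age means went from 1.82 through 1.46 and 0.569 to 0.683. By their medians the rises were highest at prepuberty, where their selection favours high values. Their later drop was near that of all tested loci. The puberty mean was below the prepuberty mean at 87.4% of rises, against 86.8% of all tested loci. For the postpuberty mean it was 84.7% against 81.4%. At both older ages the medians of the rises lay above those of the tested loci as a whole, and the medians of the falls lay below.

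**Figure D5:**
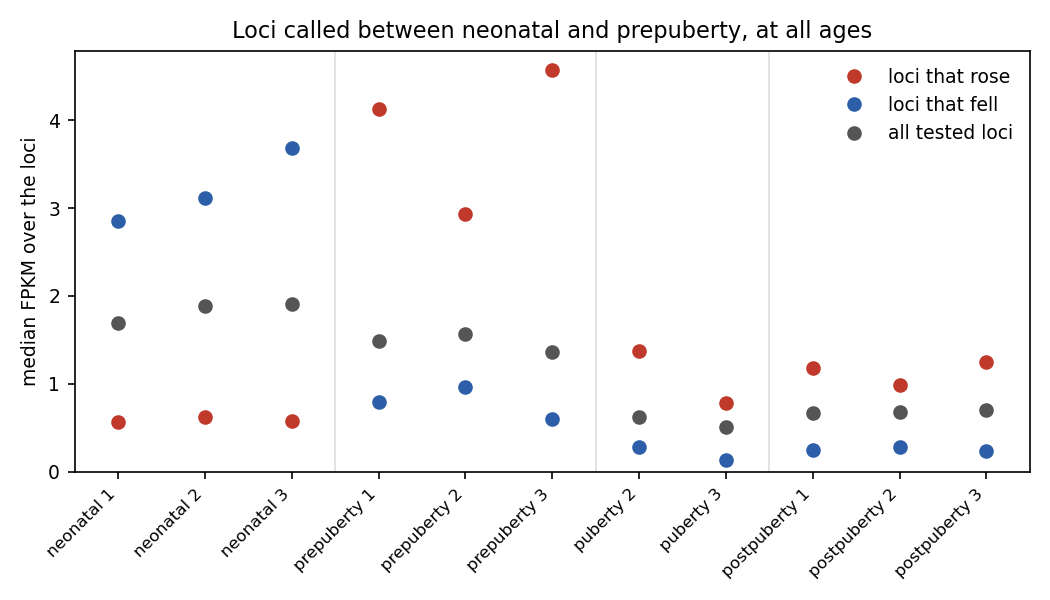
Each point is the median FPKM, in 1 of the 11 libraries, of the 111 loci that rose (red), the 172 that fell (blue) and all 6591 tested loci (grey). Red points reach 2.93 to 4.57 in the prepuberty libraries and 0.779 to 1.38 in the older ones, and blue points are below 1 from prepuberty on.

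Single loci took different paths after prepuberty. MSTRG.110062 averaged 0.431 FPKM at puberty and 0.520 at postpuberty, far under its prepuberty libraries, and MSTRG.408422 averaged 0.711 and 0.366. MSTRG.407276 averaged 76.5 ± 31.5 (SD, n = 2) and 92.4 ± 39.1 (n = 3), levels within the range of its prepuberty libraries. MSTRG.410845 averaged 27.5 and 20.9. So MSTRG.408422, low in neonatal testes, was low again later, whereas MSTRG.410845, without reads in neonatal testes, was not, by their means. MSTRG.407276 and MSTRG.110062 were higher in neonatal testes, with means of 17.9 and 9.47 FPKM. Comparisons of these ages with prepuberty share the prepuberty libraries with the comparison described here.

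A further 7 rises had every one of the 5 older libraries above all 6 younger ones (6.31%, near the 4.35% of all tested loci). The loci that follow were picked from these and from the falls after their values were seen. For gene16533 the levels were 2.21, 1.99 and 1.64 FPKM in neonatal and 5.87, 8.63 and 4.99 in prepuberty libraries, then means of 34.8 and 50.3 at the older ages (change to prepuberty 1.32, adjusted p = 0.00142). MSTRG.274177 had 0.0929, 0.0972 and 0.0998 FPKM, 3 reads in all, against 3.56, 2.62 and 4.93, and then averaged 19.1 and 23.9. MSTRG.29211 had 1.34, 0.548 and 4.08 against 11.2, 5.86 and 19.2, and then 107 and 91.5. These 3 went up at prepuberty in all libraries and were higher still in older testes.

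Another of the 7, gene26856, had 4.66, 3.40 and 3.49 FPKM against 8.87, 9.66 and 8.13 and then averaged 92.3 and 90.4. Its change to prepuberty of 1.03 went to 0.97 without neonatal replicate 2, 0.98 without neonatal replicate 3 and 0.98 without prepuberty replicate 2, so that the call rests on the size threshold.

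Among the falls, 2 went the other way later, with all 5 older libraries above the 6 younger ones (1.16%, below the 4.35% of all tested loci). MSTRG.348071 had 3.85, 1.81 and 1.24 FPKM in neonatal and 0.442, 0.465 and 0.148 in prepuberty libraries, from 35 and 7 reads, and then averaged 14.3 and 16.4. The change to prepuberty was -1.22 (adjusted p = 0.00489), and -0.90 without neonatal replicate 1. MSTRG.407039 had 3.12, 2.26 and 2.32 against 0.368, 0.965 and 0.369, then 8.93 and 6.18 (-1.20, adjusted p = 0.00837), and was not called with voom (adjusted p = 0.0678). MSTRG.111828 was lowest at prepuberty, at 2.03, 2.81 and 1.66 FPKM, then 0.249, 0.0982 and 0.0313, then means of 0.975 at puberty and 2.05 at postpuberty (change to prepuberty -1.48 ± 0.15, adjusted p = 0.000281).

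Some loci named gene with a number are given as examples, again chosen after their values were seen. Other calls of this type, among them gene7384, gene8110, gene21154 and gene26856, were lost under some alternatives, as described above. In gene28765 the levels were 0.325, 0 and 0 FPKM, 1 read, against 5.47, 4.44 and 7.23, from 68 reads (2.59 ± 0.25, adjusted p = 0.000214). For gene2057 they were 4.65, 1.45 and 1.49 against 18.4, 10.3 and 30.3 (2.55 ± 0.39, adjusted p = 0.00169). Falls of this type included gene24947, at 7.94, 7.98 and 5.46 FPKM against 1.83, 2.24 and 1.71, a change of -1.46. In these 3 loci the ages were well separated, and no alternative ended the call. The fall of gene26158, from 11.9, 14.3 and 12.1 FPKM to 4.71, 5.74 and 3.89 (-1.26 ± 0.14, adjusted p = 0.000321), was lost as TPM alone.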

How the data were processed

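The authors deposited 1 table per library, with an FPKM value for each locus and no header. HISAT2 2.1.0 and StringTie 2.1.1 are named in the submitters' processing notes, whereas the build, annotation and counting step were "not given in the sources used here". The table of puberty replicate 1 was not used.

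Low FPKM values move in steps of 1 read, so library totals, locus lengths and reads were recovered from them. All 24116 loci gave whole reads, within 0.000154 reads, in every library. Lengths so obtained may be too short by a whole factor where a locus has only counts divisible by it. No pair of libraries of an age agreed within sampling noise.

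Values were analysed as log2(FPKM + 1) with limma 3.58.1 in R 4.3.3, with a variance trend, with a mean for each age over the 11 libraries and 7 residual degrees of freedom, two-sided. P-values were Benjamini-Hochberg adjusted over the 6591 loci, and a call needed 0.05 and a log2 change of 1. The procedure was also run on simulated data, with 1 setting of spread for all loci and no library shifted toward the other age. The libraries here were uneven, so that run does not show how the procedure performs on them. Because FPKM are not counts, no count test was the main result, and voom on the recovered reads was an alternative.

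Named loci, by a rule: the called, non-overlapping loci in each direction, namely the 7 most abundant, the 6 of largest change and up to 3 with no read in the lower age, plus the 4 most abundant of all. Others are marked as chosen after their values were seen. The members, lists and rules were chosen with earlier results of these data known. Marker lists of testis cell types were planned and not run, since 0 loci have symbols. Alternatives covered the pseudocount, filter, scaling, fit, replicate block and leaving out each library.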

Additional observations from a re-analysis of the deposited data

How the results depend on the processing

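With the FPKM as deposited there were 111 rises, 172 falls and 283 calls. A pseudocount of 0.1 gave 210 rises and 483 falls (693 calls), voom on the recovered reads 222 and 612 (834), voom on the 6 libraries 175 and 480 (655), and no fold threshold 411 and 1313 (1724). Median of ratios scaling left 58 falls, quantile normalization 81 and TPM 83, the last with 942 rises and 1025 calls. With the median change taken out, added after the data were seen, 172 loci rose and 64 fell. Leaving out 1 library gave 98 to 146 rises, 120 to 259 falls and 218 to 391 calls. The difference in loci reaching an FPKM of 1 was -1302 to -901 loci when 1 library was left out, and -908 and -121 at minimums of 0.5 and 5. That difference was not tested under another scaling. The replicate block, although replicate numbers did not pair the samples (correlations of deviations -0.00552, -0.0247 and 0.0334), gave 111 rises and 172 falls, with 110 and 171 of them shared. Of 900 values of named loci under alternatives, 812 kept their side, 83 lost the call and 5 changed sign, all at uncalled loci: MSTRG.178147 as TPM (0.20), MSTRG.385323 without neonatal replicate 1 (-0.11, against 0.24 without neonatal replicate 3, 0.33 after median of ratios scaling and 0.85 as TPM, at an adjusted p of 0.0217), and MSTRG.180257 after median of ratios scaling (0.0447), as TPM (0.57) and with the median taken out (0.0011). The cause was not tested. Counted by locus, stability was lower than these 900 values make it look. Of the 26 called loci named by the rule, 12 kept the call under every alternative. So did 12 of 21 other loci, picked after their values were seen and followed in the same way. These 21 include MSTRG.19667, MSTRG.343881, gene17863 and gene17072, which are not described above. They do not include MSTRG.357603, MSTRG.357609, MSTRG.252922 and MSTRG.252928, which are described above. Depth limits the short loci, where a few reads decide the value.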
